A study of Mus musculus with 12 samples.

Results

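Interferon-stimulated genes are the genes that cells switch on when they sense interferons, and 45 of them were followed here in intestinal stem cells (ISCs) of young and old mice. They were given as a list of names, chosen with earlier results of these data known, and 45 of 45 were found by symbol among the 54232 genes of the count table. Transcripts had been counted by 3′ RNA sequencing in 12 libraries, each from the small intestine of a single mouse, to ask how the expression of ISCs differs with age. The SM6 libraries came from wild-type C57/Bl6 mice and the Lgr5-GFP libraries from Lgr5-EGFP-IRES-CreERT mice, which carry a fluorescent reporter and an inducible Cre in Lgr5, a receptor gene of ISCs. Each strain was sampled at 2 months (young) and at 22 months (old), with 3 libraries in each of the 4 groups, no treatment is labelled for any group, and the study's methods state that the mice were female.

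Strain and isolation changed together, so a difference between SM6 and Lgr5-GFP cannot be told apart from a difference between strains. The labels describe sorting by surface markers (CD31-, CD45-, CD24 medium, CD44 high, EPHB2 high, EPCAM+ and others) for every library, whereas a supplementary legend has the reporter mice sorted by green fluorescence. The gate is meant to leave out blood cells (CD45) and vessel cells (CD31). Depth was between 970472 and 3815425 counts per library, with a median of 1424340. ISC markers were abundant in every library, their summed level of 8 genes lying between 7845 and 15641 CPM (counts scaled to a common library total after adjustment by the trimmed mean of M values). This sum was lower in SM6 old (8396 ± 628, SD, n = 3) than in SM6 young (14388 ± 1555, n = 3), and the summed level of 6 goblet cell markers was higher (17551 ± 624 against 7174 ± 1674), in both cases without overlap. Most of the ISC sum came from Olfm4, with means of 10728 CPM in SM6 young and 5995 in SM6 old. Of the 8 ISC genes, only Ascl2 had a higher mean in SM6 old. Defensins, which Paneth cells secrete against microbes, accounted for 23.1% of SM6 old 3 and 23.2% of Lgr5-GFP young 1, against 1.26% to 12.4% in the other libraries.

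Interferons are secreted proteins that warn neighbouring cells of a virus or another intruder. Type I and type III interferons signal through the kinases JAK1 and TYK2 to a complex that holds STAT2 and IRF9 and binds a sequence called the interferon-stimulated response element. Type II interferon (interferon gamma) signals through JAK1 and JAK2, and its targets often hold a gamma-activated sequence. In the intestine the pathway is known for its part in the defence of the epithelium, and many of its genes keep a low level of expression without any infection.

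The sequences that such factors read are found in the promoters of many of these genes. RefSeq promoter windows (GRCm38.p6, 250 bases before to 50 after the start of the gene) were held for 36 of the 45 genes. The core of the interferon-stimulated response element, GAAA followed by any 2 bases and a further GAAA, was found on either strand in 20 of the 36 genes (55.6%), against 3.99% of the 27025 genes with a window. The core of the gamma-activated sequence, TTCNNNGAA (N for any base), was found in 14 of the 36 (38.9%), against 9.55% of all. Matches of a motif could overlap each other, as in Isg15, Oas1a and Irgm1. The stretches below are shown because their genes carry the age comparisons that follow or stand for a family that was close to silent in these cells. They are printed 5′ to 3′ in the direction of the gene, with every match of the named motif within the stretch in capitals.
Isg15, chr4:156200871-156200900, minus strand, response element: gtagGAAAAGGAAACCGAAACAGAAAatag
Ifit1, chr19:34640775-34640804, plus strand, response element on the other strand: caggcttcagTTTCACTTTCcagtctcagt
Oas1a, chr5:120907520-120907549, minus strand, response element: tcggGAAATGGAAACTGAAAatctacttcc
Ifitm3, chr7:141010723-141010752, minus strand, response element: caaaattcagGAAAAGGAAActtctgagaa
Ifitm2, chr7:140955988-140956017, minus strand, response element: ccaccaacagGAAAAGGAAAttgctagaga
Irgm1, chr11:48871425-48871454, minus strand, response element: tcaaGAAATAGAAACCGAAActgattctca
Igtp, chr11:58199512-58199541, plus strand, response element: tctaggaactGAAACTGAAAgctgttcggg
Irf1, chr11:53769914-53769943, plus strand, gamma-activated sequence: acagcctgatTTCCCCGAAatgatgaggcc
Isg15 held 3 overlapping copies in a row, and Oas1a and Irgm1 held 2 each. Ifitm2 and Ifitm3 held the same 10 letters, and neither motif was found in the windows of Dtx3l, Lgals3bp, Oasl1 or Oasl2, which says only that these letters are not in those windows.

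Of the 45 genes, 34 passed the filter for testing (more than 5 reads and at least 1 CPM in at least 1 library), which is 75.6% against 56.6% of all genes with a count. Of the 34, 18 passed it in all 12 libraries, 12 in some and 4 in a single library. The 11 that were too low to test were Zbp1, Oas1g, Oas2, Oas3, Ifit3, Rsad2, Gbp2, Gbp3, Iigp1, Ifi44 and Xaf1, whose highest count in any library was between 1 and 4. Among them were an antiviral enzyme that many cells make in large amounts under interferon (Rsad2, or viperin) and the oligoadenylate synthetases Oas2 and Oas3. Of these 11, Xaf1 had 6 counts over SM6 young and 0 over SM6 old, 1.66-fold lower in old with the 0 set to 3 counts. A count of 0 was taken to allow 3 counts over a group. This floor covers the counting error of the 0 only and leaves out that of the other group. At the other end, Ifitm3 took 30.7% of the summed CPM of the 45 genes, Ifitm2 19.5% and Lgals3bp 13.1%, shares of counts that are not scaled for transcript length. Because 4 of the 34 tested genes (Oas1a, Ifit2, Isg15 and Usp18) passed the filter only through Lgr5-GFP young, counts over the tested genes lean towards genes that were high in that group.

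Summed over all 45 genes, the level was 1480 ± 90 CPM for SM6 young, 1674 ± 205 for SM6 old, 1906 ± 333 for Lgr5-GFP young and 1677 ± 160 for Lgr5-GFP old (SD, n = 3 each). Without Ifitm3, Ifitm2 and Lgals3bp, the sums were 588 ± 77, 586 ± 85, 690 ± 79 and 606 ± 38 CPM in the same order. Lgr5-GFP young 2 held the highest level of 11 of the 34 tested genes (32.4%), whereas it held the highest level of 8.33% of all tested genes. These were Irf1, Irf9, Isg15, Ifitm2, Ifitm3, Gbp7, Igtp, Irgm1, Parp14, Dtx3l and Ifi35. In bulk libraries, fewer cells that express a gene and less RNA per cell cannot be told apart.

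**Figure D1:**
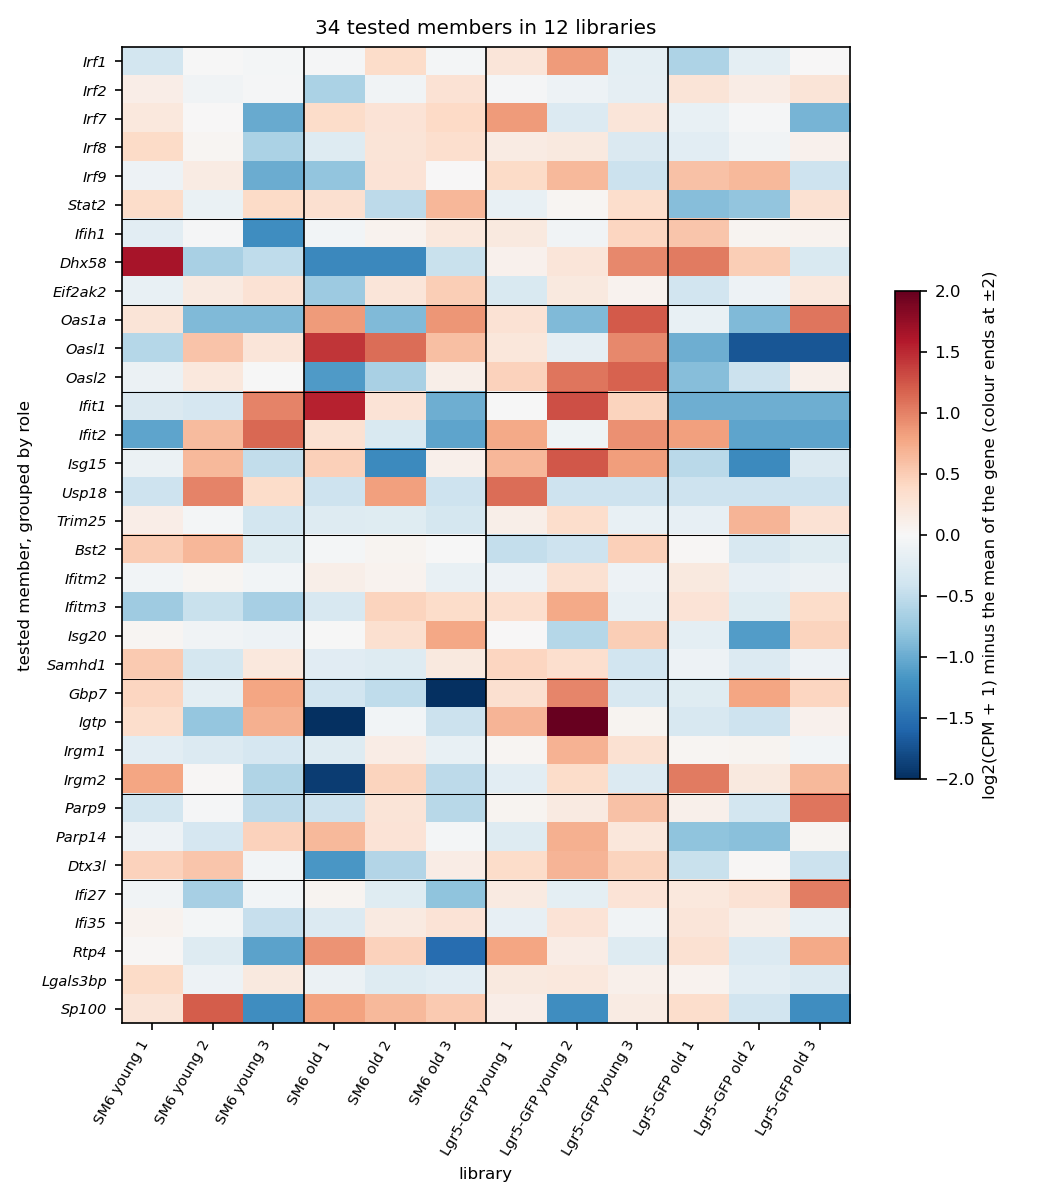
Heatmap of the 34 tested interferon-stimulated genes (rows, grouped by role) in the 12 libraries (columns, grouped by isolation and age). Colour is log2(CPM + 1) minus the gene's mean, red for higher and blue for lower, and Lgr5-GFP young 2 holds the highest level of 11 genes.

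Across the genes, 1 difference with age passed the test. Dtx3l, whose product is a ubiquitin ligase that works with PARP9 in the response to interferon and DNA damage, fell with age on average over both isolations. The test was edgeR's quasi-likelihood test over 13368 genes with Benjamini-Hochberg adjustment, with a gene called at an adjusted p under 0.05. In SM6, 0 of the 34 genes were called with age, where 2.42% of all tested genes were. In Lgr5-GFP, 0 were called, against 0.471% of all, and on average over both isolations the single gene, Dtx3l, stood against 2.66%, or 2.06% lower in old. Testing how far the age effects differed (that in Lgr5-GFP less that in SM6), 0 were called against 0.658%. At these shares, few or no calls among 34 genes are near the background.

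At an unadjusted p under 0.05, edgeR's test put 4 genes in SM6 (11.8%, against 13.1% of all genes), 7 in Lgr5-GFP (20.6%, against 9.79%), 4 on average (11.8%, against 12.8%) and 5 for the difference (14.7%, against 9.43%). Those 5 were Ifit1, Ifitm3, Irf1, Irf7 and Oasl1, of which Ifit1 had passed the filter only through SM6 old 1. All 7 in Lgr5-GFP were lower in old mice, namely Dtx3l, Ifit1, Igtp, Irf1, Isg15, Oasl1 and Oasl2, where 5.84% of all genes were, and of these Isg15 had passed the filter only through Lgr5-GFP young. DESeq2 called 1 gene for SM6, 0 for Lgr5-GFP, 1 for the average and 0 for the difference, and limma voom with sample quality weights called 1, 0, 1 and 0. The gene that DESeq2 called in SM6 was Ifitm3, and the gene that voom called there was Dtx3l.

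The fitted age effects spread around 0 in SM6 and lay lower in Lgr5-GFP. The median log2 fold change (old minus young) of the 34 genes was 0.024 in SM6, where that of all genes was -0.007. In Lgr5-GFP it was -0.29, where that of all genes was -0.034. It was -0.24 with genes at 0 in a group given the fold from the floor of 3 counts. With library totals alone, the medians were -0.13 in SM6 and -0.088 in Lgr5-GFP, where those of all genes were -0.16 and 0.16. Old was lower in 24 of 34 genes (70.6%) in Lgr5-GFP, against 53.6% of all genes, and in 16 of 34 (47.1%) in SM6, against 50.7% of all. Without the 4 genes that passed the filter only through Lgr5-GFP young, the median in Lgr5-GFP was -0.16, and old was lower in 20 of 30, a choice made after seeing the data. Without 1 library at a time, the median in Lgr5-GFP ran from -0.32 to -0.12, and it was -0.20 without both defensin-rich libraries. Depth moved with this comparison, since the 3 old Lgr5-GFP libraries held 970472 to 1371976 counts and the 3 young ones 1099102 to 3815425. The old Lgr5-GFP libraries also stood apart from the young ones in their share of mitochondrial counts (7.37% to 9.33% in old, 4.02% to 6.29% in young), in the summed level of 6 Paneth cell markers (4141 to 6158 CPM in old, 10224 to 76304 in young) and in that of the 8 ISC markers (10487 to 12154 CPM in old, 12353 to 14137 in young). Olfm4 carried most of the ISC sum, with means of 9983 CPM in young and 7960 in old, whereas Slc12a2, Rgmb and Axin2 had higher means in old. The part of these in the medians was not tested.

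The sign of the age effect often differed between the isolations. It was the same in 14 of the 34 genes (41.2%), against 53.1% of all tested genes, with 10 genes lower and 4 higher in both. Another 14 genes were higher with age in SM6 and lower in Lgr5-GFP (41.2%, against 24.7% of all), and 6 were the other way. The median difference of the age effects was -0.34, where that of all genes was 0.004. It was -0.18 without the 4 genes that passed the filter only through Lgr5-GFP young. With library totals alone in place of the scaled totals, it was 0.014 where that of all genes was 0.35, so the genes lay below the median of all genes under either scaling.

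**Figure D2:**
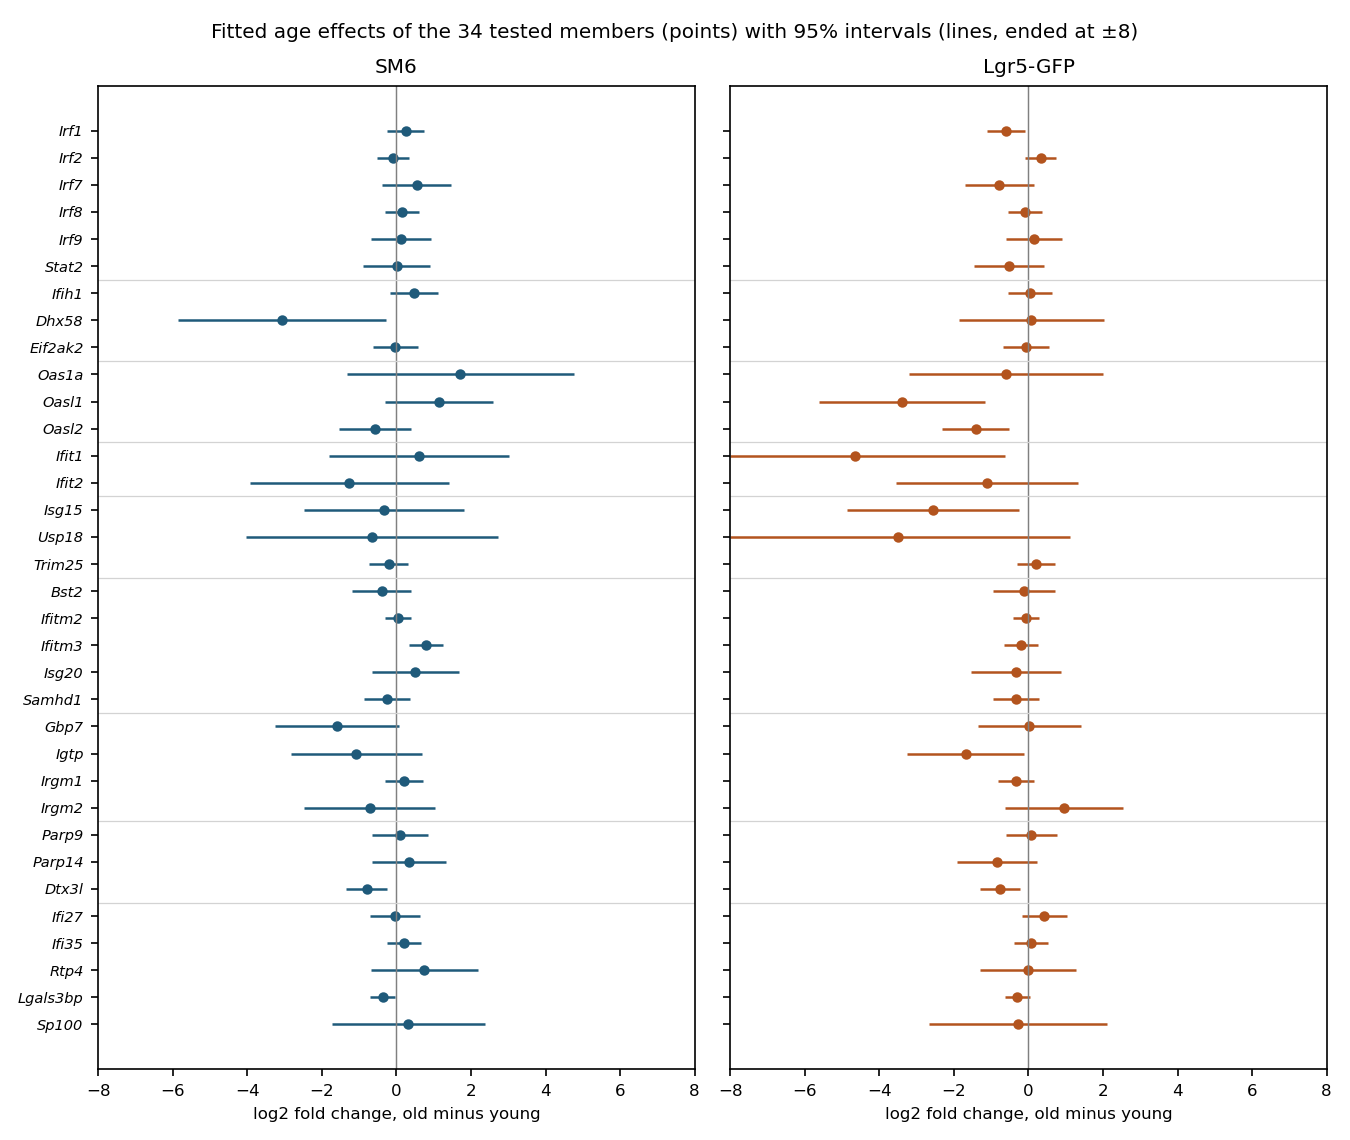
Fitted age effects of the 34 tested genes in SM6 (left) and Lgr5-GFP (right), as log2 fold changes of old minus young (horizontal axis) with their 95% intervals (lines, ended at the plot's edge), by role. In Lgr5-GFP 24 of 34 points lie below 0, and in SM6 16 do, and the wide lines belong to genes of few counts.

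By edgeR with the settings above, Dtx3l was the only one of these genes called in any of the 6 comparisons, while other tools and settings also called Ifitm3, Oasl1 or Oasl2 in some of them. Its level was 66.7, 70.9 and 46.3 CPM in SM6 young and 21.0, 31.9 and 53.5 CPM in SM6 old. The young Lgr5-GFP libraries had 62.7, 77.5 and 66.2 CPM and the old ones 35.3, 48.8 and 35.7 CPM. All 3 old Lgr5-GFP libraries lay below all 3 young ones, whereas in SM6 the old library 3, which is rich in defensins, lay within the young range.

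The log2 fold change of Dtx3l was -0.80 in SM6 (SE 0.26) and -0.77 in Lgr5-GFP (SE 0.26), and -0.79 on average (SE 0.18), with adjusted p-values by edgeR's quasi-likelihood test of 0.128, 0.251 and 0.017. The difference between the isolations was 0.028 on the log2 scale, with a 95% interval from -0.73 to 0.78. The average was called in each of 7 other settings (adjusted p of 0.000185 to 0.0205 by edgeR, DESeq2 or voom). It was no longer called without SM6 young 2 (adjusted p = 0.0624), SM6 old 1 (0.0667), SM6 old 2 (0.0580) or Lgr5-GFP old 1 (0.0594), each left out of the edgeR fit in turn, and its size then ran from -0.98 to -0.64 over all 12 such fits. Within SM6, the value ran from -1.20 (called without SM6 old 3, adjusted p = 0.0102 by edgeR) to -0.52 (without SM6 old 1, adjusted p = 0.473) with each library left out in turn.

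Parp9, the partner of Dtx3l, lies on the opposite strand of chromosome 16 and shares 682 bases of its gene body with it, and the strand setting used in counting is not stated in the sources used here. Reads of the shared stretch may therefore have been given to either gene. That stretch lies at the starts of both genes, whereas these libraries were sequenced from 3′ ends. How many reads fell in it was not tested. With age, the log2 fold change of Parp9 was 0.11 (SM6), 0.08 (Lgr5-GFP) and 0.09 for the average (95% interval -0.42 to 0.60). Parp14, a relative that modifies proteins with ADP-ribose, had log2 fold changes of 0.33 (SM6) and -0.84 (Lgr5-GFP) without passing the test.

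The ratio of Dtx3l to Parp9 counts, a pair chosen after its values were seen, was 4.58, 3.76 and 3.56 in SM6 young and 1.5, 1.38 and 4.19 in SM6 old. The Lgr5-GFP ratios were 3.16, 3.57 and 2.25 for young and 1.71, 3.33 and 0.860 for old mice. The groups overlapped in both isolations, with SM6 old 3 and Lgr5-GFP old 2 among the young values. Over both isolations the log2 ratio was 0.87 lower in old (-0.87, exact permutation p = 0.06, two-sided, over 400 arrangements of age within isolation, of which the smallest possible p is 0.005). The plot of count ratios shows this pair beside Ifitm3 and Ifitm2.

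**Figure D3:**
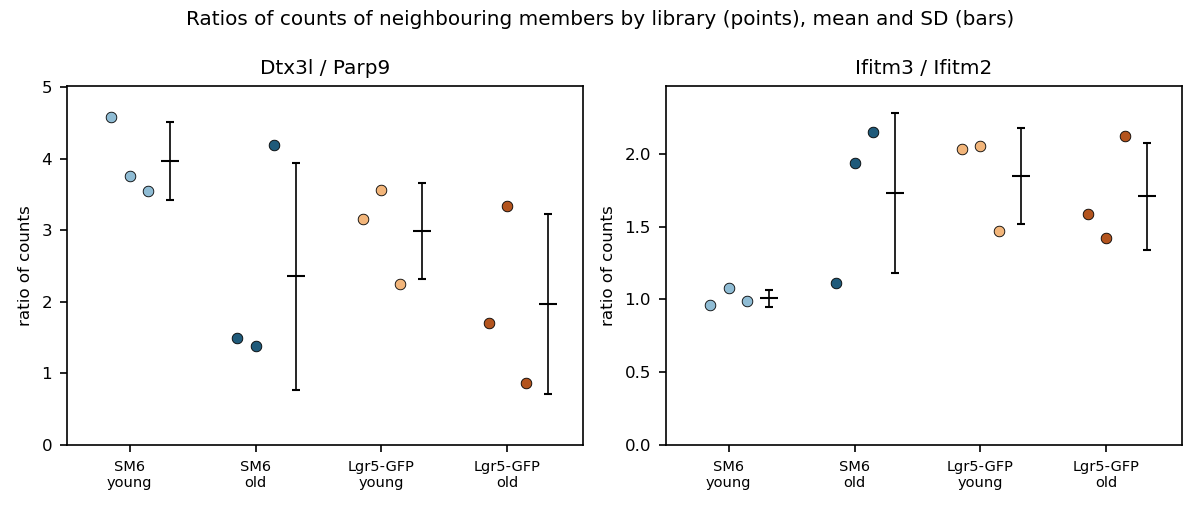
Ratio of the counts of neighbouring genes (vertical axis, linear, from 0) in each library (points), with the mean and SD of each group of 3 (bars). The ratio of Dtx3l to Parp9 overlaps between ages in both isolations, and that of Ifitm3 to Ifitm2 stays between 0.959 and 1.08 in SM6 young and reaches 2.15 in SM6 old.

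The IFITM proteins sit in membranes and keep enveloped viruses from entering the cell, and Ifitm3 took the largest share of counts among the 45 genes. In SM6, its level was 300.4, 362.5 and 310.7 CPM in young and 394.3, 668.5 and 633.5 CPM in old mice. Among Lgr5-GFP mice, the young had 619.0, 830.0 and 446.2 CPM and the old 594.5, 414.7 and 638.4 CPM. The 3 SM6 young libraries were the lowest of the 12, and the ages overlapped in Lgr5-GFP.

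The fitted difference of Ifitm3 was 0.80 on the log2 scale in SM6 (SE 0.22, adjusted p = 0.056 by edgeR) and -0.20 in Lgr5-GFP (SE 0.22, adjusted p = 0.836), and neither was called. The difference between these age effects was -1.0 (SE 0.31, adjusted p = 0.225 by edgeR). The SM6 value was called by DESeq2 (adjusted p = 0.013), by edgeR with no filter on low counts (0.000963) and by edgeR on the SM6 libraries alone (0.0241). In SM6 the summed goblet cell markers moved with it, with 5636 to 8958 CPM in young and 16831 to 17931 CPM in old, and the summed ISC markers moved the other way. The summed level of 8 enterocyte markers was also higher in SM6 old (2075 to 8578 CPM) than in SM6 young (1339 to 1534 CPM). Fabp1 and Fabp2 carried most of this sum. Apoa1, Apoa4 and Lct overlapped between the ages, as did Fcgbp and Zg16 of the goblet cell markers. Lgr5-GFP old had lower goblet sums (3118 to 5406 CPM) than SM6 old, with a mean Ifitm3 level of 549 CPM against 565 in SM6 old. The part of goblet cells, ISCs and enterocytes in the SM6 difference of Ifitm3 was not tested.

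Ifitm2, a close relative 53598 bases away on chromosome 7, had close means in the groups, of 322 ± 13 CPM for SM6 young, 332 ± 32 for SM6 old, 338 ± 58 for Lgr5-GFP young and 323 ± 46 for Lgr5-GFP old (SD, n = 3 each). Its log2 fold change with age was 0.04 in SM6 (95% interval -0.30 to 0.39) and -0.06 in Lgr5-GFP (-0.40 to 0.28). The 2 genes are similar in sequence, so how reads were split between them is uncertain. The ratio of Ifitm3 to Ifitm2 counts was 0.959, 1.08 and 0.986 in SM6 young and 1.11, 1.94 and 2.15 in SM6 old, without overlap. Its exact two-sided permutation p was 0.1, the smallest that 3 libraries against 3 allow, and over both isolations it was 0.225. Ifitm3 was followed in part because it separated the ages in SM6, so the SM6 ratio is not separate evidence. The other genes of this group that restrict viruses were Bst2 (tetherin, which holds budding viruses at the cell surface), Isg20 (an RNA exonuclease) and Samhd1 (which degrades nucleotides), and 0 of these 3 passed the test with age in either isolation.

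**Figure D4:**
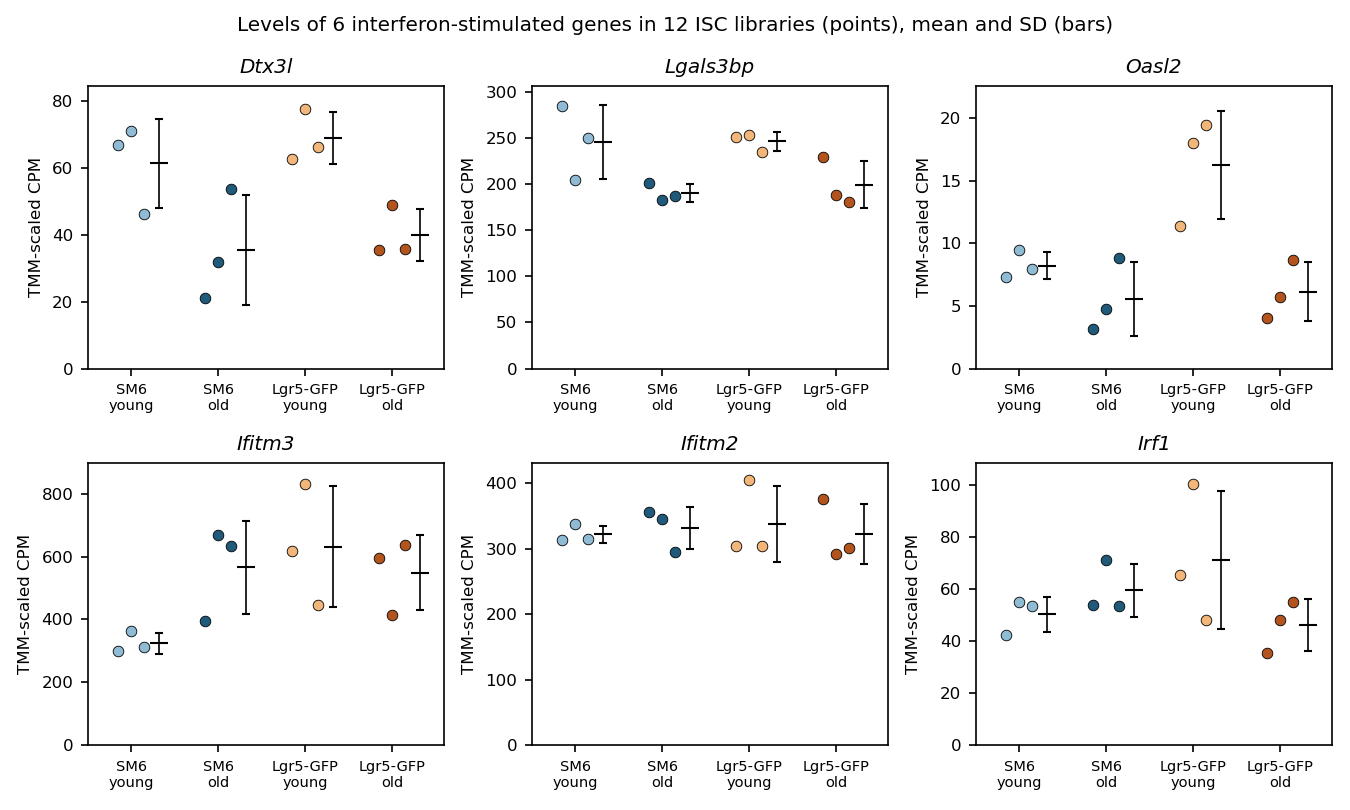
Levels of 6 genes in CPM (vertical axes, linear, from 0) in each library (points) with the mean and SD of each group of 3 (bars). The means of Dtx3l and Lgals3bp are lower in old than in young in both isolations, the 3 SM6 young libraries are the lowest of the 12 for Ifitm3, and the means of Ifitm2 lie between 322 and 338 CPM.

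Lgals3bp, which encodes a secreted protein that binds galectin-3, was lower in old mice in both isolations without overlap, at 284.6, 204.5 and 250.04 CPM in SM6 young and 201.8, 183.2 and 187.7 CPM in SM6 old. Young Lgr5-GFP mice had 251.4, 253.3 and 235.1 CPM and old ones 229.3, 188.6 and 181.3 CPM. In SM6, the young library 2 lay close above the highest old one. Among the 34 genes no other separated the ages in the same direction in both isolations, as 2.03% of all tested genes did. The log2 fold change on average was -0.33 (SE 0.12), which did not pass the test (adjusted p = 0.162 by edgeR, and 0.119 to 0.425 over the other settings and libraries left out).

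Irf1, a transcription factor that drives many genes of the response to interferon gamma, was singled out by the study. The study reported lower Irf1 RNA in old wild-type ISCs, from pools of mice sequenced over whole transcripts. It also reported weaker IRF1 staining in old crypts. In the 3′ libraries used here, the level of Irf1 was 42.5, 54.9 and 53.5 CPM in SM6 young and 53.8, 71.3 and 53.5 CPM in SM6 old. Its levels in Lgr5-GFP were 65.2, 100.2 and 48.0 CPM (young) and 35.3, 48.0 and 55.0 CPM (old). The ages overlapped in both isolations, and the highest value was that of Lgr5-GFP young 2. The log2 fold change was 0.25 in SM6 (95% interval -0.26 to 0.75) and -0.60 in Lgr5-GFP (-1.11 to -0.09), with adjusted p-values of 0.751 and 0.406 by edgeR. The difference between the isolations was -0.85 (adjusted p = 0.436 by edgeR), and the average was -0.18 (adjusted p = 0.755). With each library left out in turn, the SM6 value ran from 0.094 (without SM6 old 2) to 0.33, the Lgr5-GFP value from -0.82 (without Lgr5-GFP young 3) to -0.32 (without Lgr5-GFP young 2) and the average from -0.29 to -0.034 (without the same 2 libraries), and none of these was called.

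Of the other transcription factors of the response, Irf8 held the most counts, with means of 110 ± 37 CPM for SM6 young, 122 ± 26 for SM6 old, 114 ± 20 for Lgr5-GFP young and 106 ± 11 for Lgr5-GFP old (SD, n = 3 each). Its log2 fold change with age was 0.15 in SM6 and -0.09 in Lgr5-GFP, and neither passed the test. Irf7, the factor that amplifies type I interferon, separated the ages in SM6, at 9.71, 8.31 and 3.61 CPM in young and 10.9, 10.2 and 11.2 CPM in old. The Lgr5-GFP libraries overlapped, with 15.8, 6.62 and 9.93 CPM for young and 7.33, 8.13 and 3.86 CPM for old mice. The log2 fold changes of 0.55 and -0.78 were not called, nor was their difference (-1.33, adjusted p = 0.521 by edgeR). Irf2, a relative that dampens the response, was higher without overlap in Lgr5-GFP old (71.4 ± 3.4 CPM) than in Lgr5-GFP young (56.9 ± 3.2 CPM) and was not called (0.32 on the log2 scale, adjusted p = 0.654 by edgeR). Irf9 and Stat2, which are parts of the complex that binds the response element, had means of 15.4 to 23.6 CPM and of 7.04 to 11 CPM over the groups, and neither was called.

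The OAS family makes short adenylate chains that switch on an RNA-degrading enzyme, and Oasl1, a relative without that activity, is known to hold back the translation of Irf7. Oasl2 was 7.28, 9.42 and 7.95 CPM in SM6 young and 3.12, 4.75 and 8.79 CPM in SM6 old. Levels in Lgr5-GFP were 11.3, 18.0 and 19.5 CPM (young) and 4.00, 5.69 and 8.68 CPM (old). The ages separated in Lgr5-GFP, and in SM6 the old library 3 lay among the young ones. The log2 fold change was -1.42 in Lgr5-GFP (SE 0.44, adjusted p = 0.207 by edgeR) and -0.99 on average (SE 0.32, adjusted p = 0.119), and the average was called without SM6 old 3 (-1.22, adjusted p = 0.0460 by edgeR).

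Oasl1 went opposite ways in the isolations. The SM6 libraries held 2, 7 and 4 counts when young and 10, 9 and 5 when old, and in CPM every old library (3.99 to 7.79) lay above every young one (1.21 to 3.88). The young Lgr5-GFP libraries held 9, 2 and 13 counts and the old ones 1, 0 and 0, and every old library lay below every young one. Over the group, 24 counts stood against 1, a level 13.6-fold lower in old (95% counting interval 2.22 to 559), and at 22 months Lgr5-GFP was 22.6-fold lower than SM6 (3.68 to 928). The difference of the age effects was not called (adjusted p = 0.148 by edgeR). Oasl1 and Oasl2 are close copies, as are Oas1a and Oas1g, so the share of reads given to each is uncertain. Oas1a was seen at 0 to 8 counts, in 7 of 12 libraries, and did not pass the test with age.

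The IFIT proteins bind viral RNA, and ISG15 is a small protein that is attached to others much like ubiquitin, with USP18 removing it and TRIM25 among its ligases. For Ifit1, 1, 1 and 4 counts were found in SM6 young and 6, 2 and 0 in SM6 old. The young Lgr5-GFP libraries had 3, 4 and 4 counts of it and each old library 0, 2.08-fold lower in old with the 0 set to 3 counts over the group. For Isg15, 2, 5 and 1 counts were found in SM6 young and 3, 0 and 2 in SM6 old. Young Lgr5-GFP mice had 9, 5 and 8 counts and old ones 1, 0 and 1, that is 22 against 2, or 6.23-fold lower in old (95% counting interval 1.53 to 54.7). Isg15 passed the filter only through Lgr5-GFP young, so its fold and lack of overlap against that group are in part set by the filter. Old and young did not overlap in CPM for either gene in Lgr5-GFP and overlapped in SM6, and neither was called (adjusted p = 0.421 for Ifit1 and 0.444 for Isg15 by edgeR).

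Low depth bears on these genes, since 1 count was worth 0.315 CPM in Lgr5-GFP young 1 and 0.964 CPM in Lgr5-GFP old 3. Usp18 had 6 counts in Lgr5-GFP young, all in replicate 1, and 0 in old, and 0 to 3 counts per library in SM6. Ifit2 overlapped between the ages, with 0, 4 and 5 counts in SM6 young, 2, 1 and 0 in SM6 old, 8, 1 and 7 for Lgr5-GFP young and 4, 0 and 0 for Lgr5-GFP old. Trim25 was well measured, with means of 31.9 ± 5.5 CPM for SM6 young, 27.6 ± 1.1 for SM6 old, 36.7 ± 6.6 for Lgr5-GFP young and 42.0 ± 12.3 for Lgr5-GFP old (SD, n = 3 each), and its log2 fold changes of -0.21 and 0.20 with age did not pass the test.

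**Figure D5:**
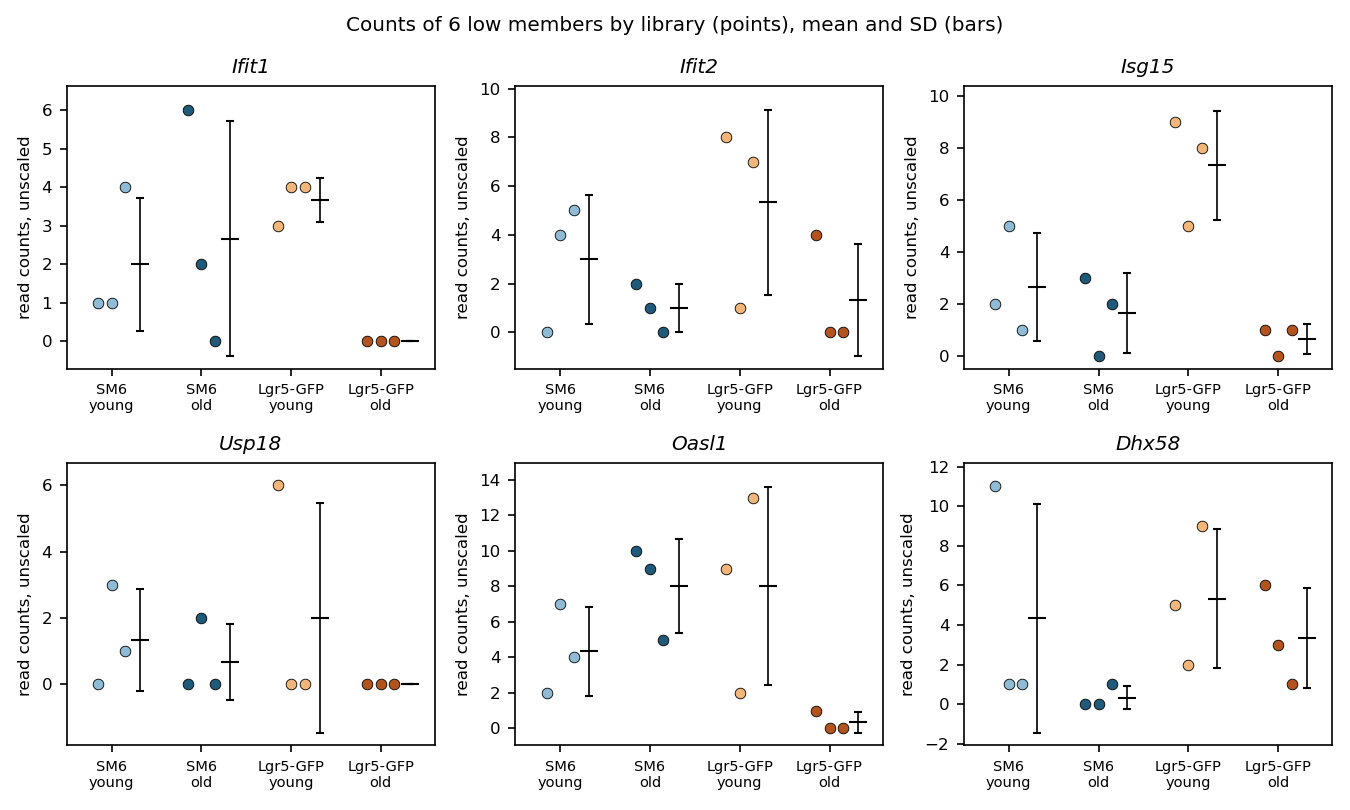
Read counts, not scaled for depth, of 6 weakly expressed genes (vertical axes, linear) in each library (points) with the mean and SD of each group of 3 (bars). Ifit1 and Usp18 have 0 counts in all 3 old Lgr5-GFP libraries, and Isg15 and Oasl1 have at most 1 in each.

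The sensors of foreign RNA were Ifih1 (MDA5, which senses long double-stranded RNA), Dhx58 (LGP2, which assists it) and Eif2ak2 (PKR, a kinase that halts translation). Eif2ak2 held the most counts, with means of 25.1 to 28.7 CPM over the groups and its log2 fold changes with age were -0.03 (SM6) and -0.06 (Lgr5-GFP). Ifih1 had means of 16.4 to 26.2 CPM. Dhx58 had 11, 1 and 1 counts in SM6 young and 0, 0 and 1 in SM6 old, 10.8-fold lower in old (95% counting interval 1.62 to 458), and a single library, SM6 young 1, held most of them. The Lgr5-GFP libraries overlapped for Dhx58, with 5, 2 and 9 counts for young and 6, 3 and 1 for old mice, and 0 of the 3 tested sensors were called with age.

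The guanylate-binding proteins and the immunity-related GTPases (IRG family) attack the vacuoles in which parasites and bacteria live. Irgm1, a regulator of the family, had 26.7, 25.5 and 24.6 CPM in SM6 young and 25.7, 34.6 and 28.0 CPM in SM6 old. The Lgr5-GFP levels were 32.1, 51.0 and 38.5 CPM for young and 31.99, 32.5 and 29.9 CPM for old mice. Its ages overlapped in both isolations, and the log2 fold changes of 0.20 and -0.33 with age were not called. Igtp had 6.30, 21.7 and 3.73 CPM in Lgr5-GFP young and 2.67, 2.44 and 3.86 CPM in old, with overlap, and Gbp7 separated the ages in SM6, at 2.77 to 6.50 CPM in young and 0 to 2.34 CPM in old. Neither gene was called. These families hold close copies, so the counts of single members are uncertain.

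Of the remaining interferon-induced genes, Ifi27, Ifi35, Rtp4 and Sp100 were tested and none was called with age. Ifi35 had means of 43.2 to 50.03 CPM over the groups and Ifi27 of 17.6 to 32.5 CPM. In all, 5 of the 34 genes separated the ages in SM6 (14.7%, against 17.5% of all tested genes), with Irf7, Oasl1 and Ifitm3 higher and Gbp7 and Lgals3bp lower in old. In Lgr5-GFP, 7 did (20.6%, against 14.6% of all), with Irf2 higher and Oasl1, Oasl2, Ifit1, Isg15, Dtx3l and Lgals3bp lower.

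The isolations were set against each other within each age. At 2 months, 0 of the 34 genes were called by edgeR, against 0.0898% of all, with 4 at an unadjusted p under 0.05 (11.8%, against 7.47% of all; Ifih1, Ifitm3, Irgm1 and Oasl2, all higher in Lgr5-GFP). DESeq2 called 1, Ifitm3, and voom 0. The libraries did not overlap for 5 genes, Oasl2, Isg15, Ifitm3, Irgm1 and Parp9, which is 14.7% against 13.7% of all, and all 5 were higher in Lgr5-GFP, as 6.38% of all genes were, although Isg15 had passed the filter only through that group. For Ifitm3 the log2 fold change was 0.96 (SE 0.22, adjusted p = 0.123 by edgeR), and the median of the 34 genes was 0.19, or 0.17 without the 4 genes that passed only through Lgr5-GFP young, where that of all genes was -0.008.

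At 22 months, 0 of the 34 genes were called by edgeR, against 0.718% of all, with 5 at an unadjusted p under 0.05 (14.7%, against 9.4% of all), and DESeq2 and voom each called 0. Of these 5 genes, Dhx58, Ifi27 and Trim25 were higher in Lgr5-GFP and Ifit1 and Oasl1 lower. Ifit1 had passed the filter only through SM6 old 1, so its place here is in part set by the filter. The libraries did not overlap for 7 genes (20.6%, against 13.5% of all), in which Dhx58, Trim25, Gbp7 and Ifi27 were higher and Irf7, Oasl1 and Sp100 lower. The median was -0.018, where that of all genes was 0.

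Among the other genes of the pathway, 1 passed the test with age. The ligand genes Ifnb1, Ifng, Ifnl2, Ifnl3 and Ifne were at 0 in every library, Ifnk had at most 1 count, and the receptor Ifnlr1 of the type III interferons had at most 5 and was not tested. Of 24 tested receptor, signalling and inhibitor genes, 1 was called with age in each isolation and on average, where 2.42% (SM6), 0.471% (Lgr5-GFP) and 2.66% (average) of all tested genes were. It was the same gene each time, Ptpn6, which was higher in old. Ptpn6 encodes the phosphatase SHP-1, which dampens cytokine signalling. Its level was 25.5, 15.5 and 14.5 CPM in SM6 young and 50.7, 40.7 and 55.1 CPM in SM6 old. Young Lgr5-GFP mice had 13.2, 12.3 and 17.4 CPM and old ones 53.3, 110.6 and 51.1 CPM, so the ages did not overlap in either isolation.

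The log2 fold change of Ptpn6 was 1.39 in SM6 (SE 0.30, adjusted p = 0.012 by edgeR) and 2.30 in Lgr5-GFP. The receptors of interferon gamma, Ifngr1 and Ifngr2, had log2 fold changes in SM6 of -0.56 (adjusted p = 0.081 by edgeR) and -0.51 (0.092), and of -0.08 and -0.18 in Lgr5-GFP. Jak1, a kinase shared by both kinds of signalling, had 0.31 and 0.18, and neither Jak1 nor these receptors were called.

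Blood cell RNA was scarce in these libraries but not absent. The summed counts of 10 genes of T cells and intraepithelial lymphocytes ran from 1 to 94 per library, with the blood cell marker Ptprc (CD45) at 0 to 6 counts, at 1.21 to 52.1 CPM for SM6 young, 2.4 to 17.1 for SM6 old, 17.0 to 49.2 for Lgr5-GFP young and 0.964 to 13.0 for Lgr5-GFP old. The Lgr5-GFP groups did not overlap, with old lower, as for Oasl1, Oasl2, Ifit1, Isg15, Dtx3l and Lgals3bp. The part of such cells in these differences was not tested. B cell genes (5) summed to at most 3 counts in a library, with Cd79a at 0 in every library. The 8 macrophage and dendritic cell genes summed to 3.88 to 28.98 CPM, mostly from Lyz2 (142 counts over all libraries) and Itgam (87). Lyz2 was highest in both defensin-rich libraries, Lgr5-GFP young 1 and SM6 old 3. Adgre1 and Itgax were at 0 in every library, Csf1r, C1qa and C1qb had 1 count each, and Cd68 had 14.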

How the data were processed

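Transcripts of sorted ISCs from 12 mice were sequenced from their 3′ ends, 1 library a mouse. The authors aligned reads to GRCm38 with STAR 2.4.2a and counted them over exons of GENCODE genes with featureCounts, and the deposited table holds raw counts per gene with no scaling. All sample columns were used (0 left out). The kit added molecular identifiers, and whether they were collapsed is not given in the sources used here. Samples were grouped by the isolation and age in their titles.

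The counts were fitted with edgeR 4.0.16 under R 4.3.3 (quasi-likelihood, TMM scaling, 1 mean per group, all 12 libraries, two-sided). The study's filter (more than 5 reads and at least 1 CPM in at least 1 library) left 13368 genes, and p-values were adjusted over these by the Benjamini-Hochberg method. The common dispersion was 0.0434. CPM values refer to TMM-scaled totals. Folds against a group at 0 used a floor of 3 counts over that group and leave out the counting error of the other group. Ratios with 1 to 3 counts have exact 95% intervals, which cover counting error only. Count ratios of neighbouring genes were tested by exact permutation of age within isolation (scipy 1.17.1). The fit was tested on simulated data. Figures were drawn with matplotlib 3.10.9.

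The 45 genes and all lists were chosen with earlier results of these data known. Values per library were given for genes called in any comparison, genes whose ages did not overlap in an isolation (up to 8, by p), the most abundant tested gene of each role, Irf1, and the 3 genes with the smallest p in each age comparison. Irf2, Igtp, Gbp7, Ptpn6 and other genes with values beyond that rule were added after their values were seen. Alternatives were other scalings, DESeq2 1.42.0, limma 3.58.1 voom with sample quality weights, no filter, libraries of the comparison only, a replicate block and leaving out each library. Some results are not reported here.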

Additional observations from a re-analysis of the deposited data

Results flagged for a closer look

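Oasl1 had age effects of opposite sign in the isolations, with every old library above every young one in SM6 and every old library below every young one in Lgr5-GFP. The difference of its age effects (Lgr5-GFP minus SM6) was fitted at -4.54 on the log2 scale. It was tested as an interaction and did not pass (adjusted p = 0.148 by edgeR's quasi-likelihood test). The value rests on 1 count in Lgr5-GFP old, so it depends on the prior count of the fit and is no bound.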

How the results depend on the processing

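The number of genes called with age in SM6 (0 in the report) was 1 with library totals alone, with voom and without both defensin-rich libraries (Dtx3l), 1 with DESeq2 and with the SM6 libraries alone (Ifitm3), and 2 with no filter on low counts (Dtx3l and Ifitm3). The average age effect gave 2 calls without both defensin-rich libraries (Dtx3l and Oasl2), an alternative chosen after seeing the data. With no filter on low counts, 1 gene was called for the difference of the age effects (Ifitm3), 1 at 2 months (Ifitm3) and 1 at 22 months (Oasl1), and DESeq2 also called 1 at 2 months (Ifitm3). The cause of these differences was not tested.

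With each library left out in turn, the calls ran from 0 to 1 in SM6, from 0 to 2 on average and from 0 to 1 at 2 months, and stayed at 0 in Lgr5-GFP, for the difference and at 22 months. In SM6, Ifitm3 was called without SM6 old 1, Lgr5-GFP young 2, Lgr5-GFP young 3 or Lgr5-GFP old 2, and Dtx3l without SM6 old 3. On average, Dtx3l was not called without SM6 young 2, SM6 old 1, SM6 old 2 or Lgr5-GFP old 1, and Oasl2 was called beside it without SM6 old 3. At 2 months, Ifitm3 was called without SM6 old 3 or Lgr5-GFP young 3. Of single genes, only Dtx3l, Ifitm3, Dhx58, Oasl2, Oasl1, Lgals3bp and Irf1 were followed across the settings, each in the comparisons it was named for, and no direction of these reversed in the settings run. The median over the genes changed sign in SM6 from 0.024 to -0.13 (library totals alone), -0.040 (without SM6 young 3) and -0.027 (without SM6 old 2). At 22 months it changed from -0.018 to 0.19 (library totals alone), 0.064 (voom), 0.021 (without SM6 old 2), 0.065 (without SM6 old 3), 0.050 (without Lgr5-GFP old 2) and 0.050 (without both defensin-rich libraries), and for the difference of the age effects from -0.34 to 0.014 (library totals alone). Library totals alone also moved the median of all genes in the age comparisons above, and for 22 months that median is not given here.

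The replicate numbers did not pair the libraries, since the 18 same-number pairs correlated between -0.074 and 0.048 in their deviations from the group means and 4 of 12 libraries correlated best with their own number. With a replicate block, the average age effect of Dtx3l was -0.80 (adjusted p = 0.0150 by edgeR), it remained the 1 call, and no other gene was called in any comparison. With at most 24 counts per group, the genes of the Ifit, Isg15 and Oasl1 kind were limited by depth, and the 11 untested genes had at most 4 counts in a library.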
